A study of Mus musculus with 5 samples.

Results

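Chromatin at the loci of 4 regulators of other blood lineages, Ebf1, Pax5, Spi1 and Cebpa, was examined in double positive (DP) thymocytes, the immature T cells of the thymus that carry both CD4 and CD8. The members were every region of 3 deposited lists that overlapped a fixed mm9 window around 1 of these genes: 44400001 to 44850000 of chromosome 11 for Ebf1, 44500001 to 44750000 of chromosome 4 for Pax5, 90900001 to 91000000 of chromosome 2 for Spi1 and 35850001 to 35960000 of chromosome 7 for Cebpa. They came to 22 of 56796 regions: 19 of 48320 DNase I hypersensitive (DNaseI) regions, which mark open chromatin, 1 of 4930 regions bound by HEB and 2 of 3546 regions bound by TCF1. All thymocytes came from C57/BL6 mice aged 4 to 6 weeks, with no other genotype or treatment in the labels. Each assay was 1 sample, so no value has a biological error. The sources used here do not say whether animals were pooled, how pure the cells were or how deeply each library was sequenced. The lists hold no expression values, so the cell type could not be checked against marker transcripts.

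EBF1 and PAX5 are transcription factors that specify and maintain B cell identity. PU.1, the product of Spi1, drives myeloid and B cell development, is present in the earliest thymic progenitors and is switched off as T cells commit. C/EBP alpha, the product of Cebpa, is a leucine zipper factor that directs granulocyte and monocyte development. HEB, an E protein encoded by Tcf12 that reads E-box sequences, and TCF1, the HMG-box factor encoded by Tcf7, are both needed for T cell development. Loci of other lineages are a contrast to the T lineage genes on which HEB and TCF1 are known to act.

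The DNA just before the start sites of these genes is shown because both factors read short sequence motifs. RefSeq start sites were found for 3 of the 4 genes in the table used, of build GRCm38.p6, and Spi1 was not among them. Capitals mark every E-box (CANNTG, the same on both strands) and every TCF core (CTTTG, either strand). The 250 bases before each start site, 5′ to 3′ along the gene, with GRCm38.p6 positions that cannot be set against the mm9 positions of the regions, were:
Ebf1, the first start site, chr11:44617850-44618099, plus strand: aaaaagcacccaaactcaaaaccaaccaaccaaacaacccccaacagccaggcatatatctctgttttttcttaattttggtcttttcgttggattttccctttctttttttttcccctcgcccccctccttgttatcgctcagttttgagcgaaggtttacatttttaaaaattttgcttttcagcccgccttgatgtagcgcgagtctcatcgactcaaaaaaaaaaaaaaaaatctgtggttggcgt
Ebf1, the second start site, chr11:44619978-44620227, plus strand: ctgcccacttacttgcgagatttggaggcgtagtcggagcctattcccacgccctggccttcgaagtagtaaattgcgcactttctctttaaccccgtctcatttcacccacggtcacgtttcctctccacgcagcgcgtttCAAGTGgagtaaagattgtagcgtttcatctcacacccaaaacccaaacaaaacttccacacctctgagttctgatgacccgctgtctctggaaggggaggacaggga
Pax5, chr4:44710695-44710944, minus strand: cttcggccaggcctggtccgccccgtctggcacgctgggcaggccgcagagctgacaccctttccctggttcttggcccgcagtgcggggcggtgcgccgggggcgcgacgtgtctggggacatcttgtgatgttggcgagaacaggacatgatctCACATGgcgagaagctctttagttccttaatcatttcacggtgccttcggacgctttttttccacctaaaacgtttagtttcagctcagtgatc
Cebpa, chr7:35119043-35119292, plus strand: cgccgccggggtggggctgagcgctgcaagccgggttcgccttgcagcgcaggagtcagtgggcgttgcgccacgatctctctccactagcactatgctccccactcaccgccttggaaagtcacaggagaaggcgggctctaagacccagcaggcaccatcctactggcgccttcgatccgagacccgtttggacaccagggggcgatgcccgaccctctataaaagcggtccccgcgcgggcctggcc
The second Ebf1 start site had 1 E-box, CAAGTG, and Pax5 had 1, CACATG, while the first Ebf1 site and Cebpa had 0. An E-box was present in 66.2% of 32536 different RefSeq promoter sequences of this length. None of these 4 sequences held the TCF core, which 48.7% of all promoters held. A match is a stretch of letters and not a bound site, and because the builds differ no region was assigned to these start sites, to a gene or to an intron.

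Open regions were unevenly spread over the 4 loci, with 9 of the 19 at Spi1 and 1 at Pax5. The score deposited for each region has no stated unit and was compared within its own list alone. The Ebf1 window held 6 DNaseI regions in 450 kb, or 13.3 per Mb (exact 95% Poisson interval 4.89 to 29.0). The Pax5 window held 1 in 250 kb, or 4.00 per Mb (0.101 to 22.3). Spi1 stood apart, with 9 in 100 kb, or 90.0 per Mb (41.2 to 171). The Cebpa window held 3 in 110 kb, or 27.3 per Mb (5.62 to 79.7). From the lowest to the highest, Pax5, Ebf1, Cebpa and Spi1, neighbours had overlapping intervals, while the Spi1 interval lay above those of Ebf1 and Pax5. These intervals cover counting error alone, and since open regions cluster they are too narrow.

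Together the loci held 20.9 DNaseI regions per Mb (12.6 to 32.6), and the whole list held 18.8 per Mb, a ratio of 1.11 (0.669 to 1.73). At the density of the whole list the 4 windows would have held 17.1 DNaseI regions, and they held 19. Chromosome 11 is rich in open regions, and against the density of each locus's own chromosome the ratio was 0.705. The ratio to the whole list was 1.58 with windows widened by 50 kb on both sides, 0.851 with windows narrowed by 20 kb, 0.844 with scores above the list's median, and 0.657 without Spi1, a choice made after the data were seen. By itself, Ebf1 was at 0.709 times the density of the list (0.260 to 1.54) and Pax5 at 0.213 (0.00539 to 1.19). Cebpa was at 1.45 (0.299 to 4.24) and Spi1 at 4.79 (2.19 to 9.09). Against the whole list this interval, of counting error alone, excluded 1 for Spi1 only. Against the own chromosome's density the ratios were 0.346 for Ebf1, 0.205 for Pax5, 1.23 for Cebpa and 3.92 for Spi1. No interval was computed for these, and Ebf1 held 6 regions where 17.3 would have fallen.

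Because much of the genome had no open region at all, each locus was also set beside all windows of its own width on a fixed grid. Ebf1 held more DNaseI regions than 63.9% of 5691 windows of 450 kb, whose median was 2. For Pax5, 50.4% of 10261 windows held fewer, that is none. The Cebpa count exceeded 76.4% of 23349 windows. Spi1 exceeded 93.5% of 25686 windows. These percentages describe the map and are not tests.

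**Figure D1:**
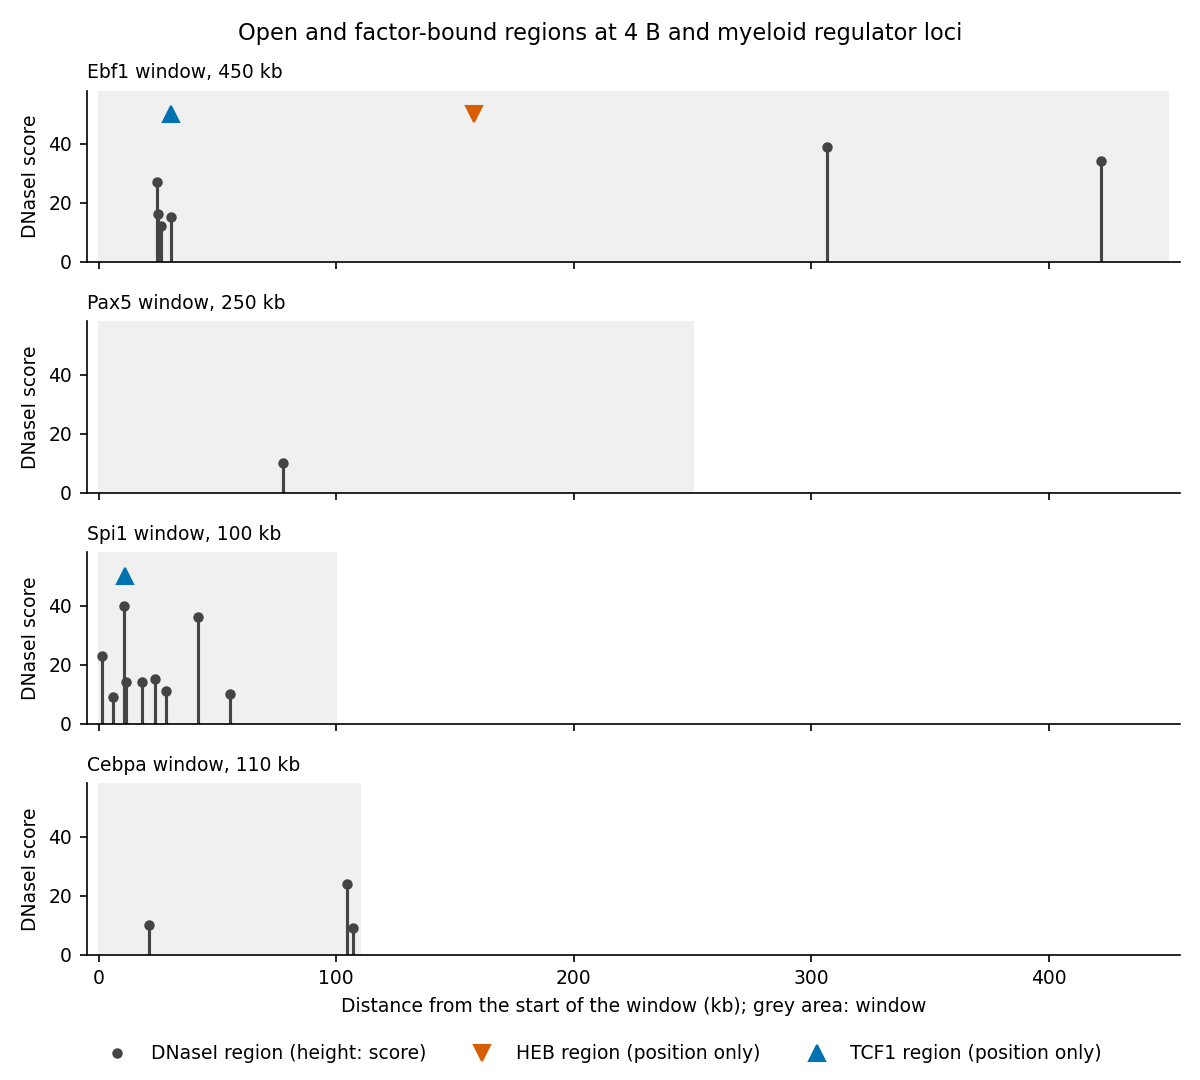
Regions of the 4 windows by distance from the start of the window (kb), with the DNaseI score as the height of each stem and the position of HEB (downward triangle) and TCF1 (upward triangle) regions above. The Ebf1 window has 4 regions near its start and then a gap of 276 kb, and Spi1 has 9 regions in its first part.

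At Ebf1, 4 of the 6 open regions lay side by side near the start of the window. They ran from 44424262 to 44424768 (507 bp, score 27), from 44425061 to 44425384 (324 bp, score 16), from 44426153 to 44426459 (307 bp, score 12) and from 44430484 to 44430771 (288 bp, score 15). The gaps between them were 0.292, 0.768 and 4.02 kb. A stretch of 276 kb without a DNaseI region followed, a length that 2.81% of the 48299 gaps of the whole list reached. The highest-scoring region of the locus came next, from 44706382 to 44706972 (591 bp, score 39), and 80.1% of all DNaseI regions had a lower score. After 115 kb more, the last lay from 44821615 to 44822026 (412 bp, score 34). No further open region was listed for 785 kb beyond it, a length reached by 1.24% of gaps. Within the window, open chromatin at Ebf1 was therefore a group of 4 sites and 2 single sites, with the higher scores at the single sites. An open region 4.69 kb before the window had a score of 80, above all 6. With windows widened by 50 kb on both sides, 14 regions were counted at Ebf1, so this pattern depends on where the window starts.

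The Pax5 window had a single open region, from 44577399 to 44577599 of chromosome 4 (201 bp, score 10). Its score was low, with 26.3% of all DNaseI regions at 10 or less. The nearest open regions were 293 kb before it and 191 kb after it, and 2.67% and 3.82% of all gaps were at least that long. The open region after it, outside the window at 18.8 kb from its edge, had a score of 67. The next gene on that side in RefSeq's order is Zcchc7.

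The Spi1 window had a chain of 9 open regions. A score above the list's median was found for 3 of them, or 33.3% (95% Wilson interval 12.1 to 64.6%), and for 48.5% of the list. The highest scores in the window were 40, from 90910581 to 90911124 of chromosome 2 (544 bp), and 36, from 90941462 to 90942115 (654 bp). The others named by rule ran from 90901211 to 90901652 (442 bp, score 23), from 90923702 to 90923959 (258 bp, score 15) and from 90911324 to 90911644 (321 bp, score 14). The other 4 were 201 to 265 bp wide with scores of 9 to 14. The median gap was 4.85 kb and the longest 13.0 kb, against a median of 5.84 kb over all gaps. Between the last region and the end of the window lay 44.6 kb without an open region. Spi1 lies between Slc39a13 and Mybpc3 in RefSeq's gene order, with Psmc3 and Madd beyond them, and which of these genes the regions belong to was not tested. With windows narrowed by 20 kb on both sides, 4 of the 9 regions remained in the window. An open region 5.14 kb before the window had a score of 89, above all 9, and lay 6.35 kb from the first of them. With windows widened by 50 kb on both sides, 16 regions were counted at Spi1.

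The Cebpa window had 3 open regions in its outer parts. They lay from 35871229 to 35871429 of chromosome 7 (201 bp, score 10), from 35954374 to 35954846 (473 bp, score 24) and from 35956829 to 35957029 (201 bp, score 9). Between the first and the second of these was a gap of 82.9 kb that included the centre of the window, 33.6 kb from the nearest open region. With windows narrowed by 20 kb on both sides, 1 region was left. The first open region after the window lay 58.9 kb beyond it and had a score of 162.

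**Figure D2:**
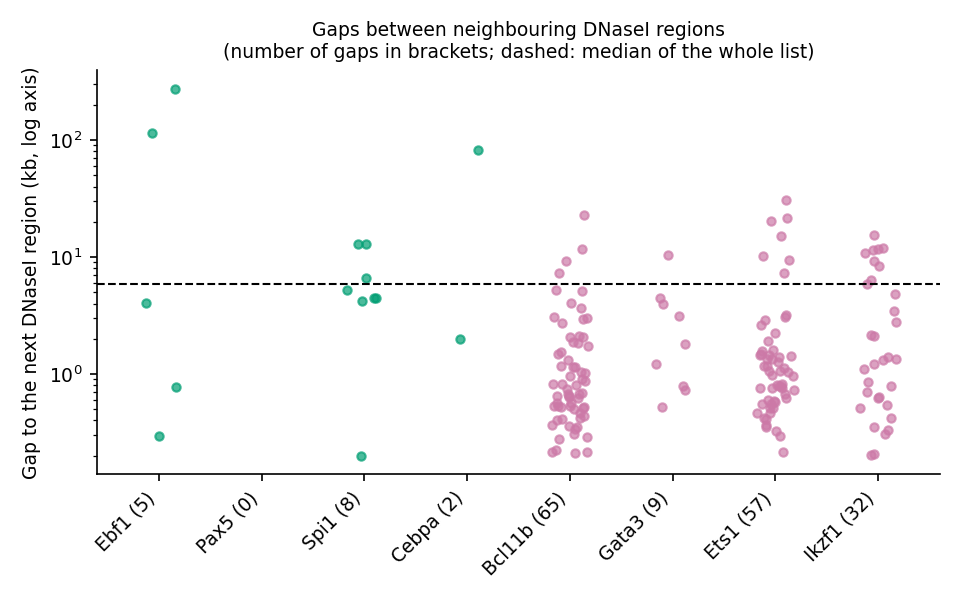
Length of each gap between neighbouring DNaseI regions within a window (kb, log axis), 1 point per gap, for the 4 B and myeloid loci (green) and 4 T lineage loci (pink), with the median of all gaps of the list as a dashed line at 5.84 kb. The Ebf1 gaps of 115 and 276 kb and the Cebpa gap of 82.9 kb are the longest shown. In the T lineage windows the longest gap between regions is 30.6 kb. Those windows are 100 to 200 kb wide, so a gap of 276 kb could not occur there. Stretches that reach a window edge are left out, such as 44.6 kb at Spi1 and 39.3 kb at Gata3. The longest Spi1 gap between regions, 13.0 kb, is shorter than the longest at Bcl11b, Ets1 and Ikzf1. With stretches to the window edge counted, the longest at Spi1, 44.6 kb, exceeds that of each T lineage window.

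Scores of the 19 open regions ran from 9 to 40 with a median of 15, beside a median of 16 and quartiles of 10 and 33 over the whole list. A score above the list's median was found for 7 of the 19, or 36.8% (95% Wilson interval 19.1 to 59.0%), and for 48.5% of the list. That difference was within counting error. Scores above the list's upper quartile of 33, namely 34 and 39 at Ebf1 and 36 and 40 at Spi1, were found for 4 of the 19, and for 23.7% of the list. The highest score, 40 at Spi1, was not reached by 81.2% of all DNaseI regions, and 18.3% scored above it. Because 40 is the members' own maximum, the lack of members above it is not a result. Widths ran from 201 to 654 bp with a median of 307 bp, beside 315 bp over the list.

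**Figure D3:**
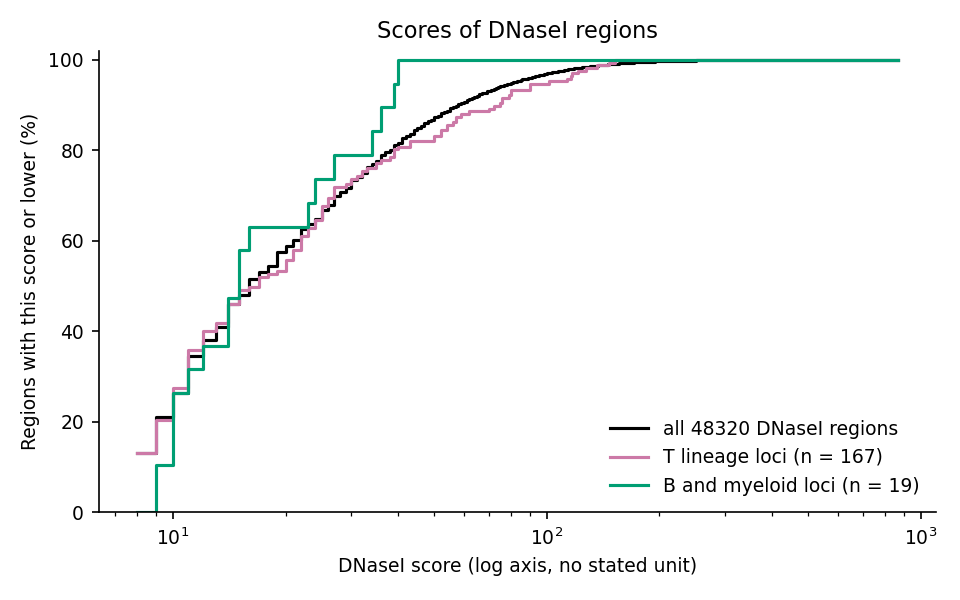
Share of DNaseI regions (%) with a given score or lower, against the score (log axis), for the whole list (black), the T lineage loci (pink) and the B and myeloid loci (green). The green curve ends at a score of 40, where the black curve stands at 81.7%, and the pink curve runs on to 152. The ends of the curves are not comparable, since green holds 19 regions and pink 167.

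HEB was found once at the 4 loci. Its region lay in the Ebf1 window from 44558044 to 44558244 of chromosome 11 (201 bp, score 10), within the stretch of 276 kb that had no open region, and 127 kb from the nearest DNaseI region. HEB lay in open chromatin at 0 of 1 regions here and at 34.5% of its whole list. Its score was low, with 40.9% of HEB regions at 10 or less, and of the 1978 HEB regions at exactly 10, 84.1% lay outside DNaseI regions. Seen from the open regions, 0 of 19 carried HEB (95% Wilson interval 0 to 16.8%), while 3.43% of all DNaseI regions did. At the density of the list 1.75 HEB regions would have fallen in the windows, so the single region did not differ from that density beyond counting error (ratio 0.573, exact interval 0.0145 to 3.19). With windows widened by 50 kb this ratio was 1.19. With so few HEB regions expected, even a count of none would have stayed within counting error. Neither a lower HEB density nor a lower HEB share could therefore have been shown.

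TCF1 was found at 2 of the 19 open regions, or 10.5% (2.94 to 31.4%), and at 6.10% of all DNaseI regions, a share within that interval. Both TCF1 regions of the loci lay in open chromatin, as 84.9% of the whole TCF1 list did. At Ebf1 the TCF1 region ran from 44430520 to 44430702 of chromosome 11 (183 bp, score 8), inside the fourth open region of the group of 4, whose score was 15. Its own score was at the low end, since 12.5% of TCF1 regions scored 8 or less. Among the 1017 DNaseI regions with a score of 15, 2.85% carried TCF1. At Spi1 the TCF1 region ran from 90910895 to 90911077 of chromosome 2 (183 bp, score 10), inside the highest-scoring open region of the locus. Of the 260 DNaseI regions that shared its score of 40, 8.46% carried TCF1. The median score of DNaseI regions with TCF1 was 56, and 7.97% and 34.7% of them scored below the regions at Ebf1 and Spi1. The TCF1 density was 1.59 times that of the list (0.193 to 5.76), from 2 regions where 1.26 would have fallen at that density. This ratio was 2.77 with windows widened by 50 kb, 0.967 with windows narrowed by 20 kb and 0.895 without Spi1, so its direction was not settled. Pax5 and Cebpa had no region of either factor, and among windows of their widths 78.9% and 88.9% held no TCF1 and 67.7% and 83.4% no HEB, so such a count is common.

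Factor regions lay close to 3 of the windows without entering them. Before the Ebf1 window, at 8.24 kb from its edge, a HEB region from 44391557 to 44391757 (score 27) and a TCF1 region from 44391555 to 44391737 (score 8) overlapped in open chromatin. The nearest TCF1 region after the Spi1 window was 23.4 kb away and the nearest HEB region 43.0 kb away. The nearest TCF1 region to the Cebpa window lay 59.7 kb beyond it, in the open region with a score of 162. For Pax5 the nearest HEB region was 99.8 kb and the nearest TCF1 region 383 kb from the window. The counts of factor regions therefore depend on where the windows end: with 50 kb added on both sides they held 3 HEB and 5 TCF1 regions.

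The last comparison set these loci beside 4 loci of T lineage regulators: Bcl11b, a zinc finger factor needed for T cell commitment, Gata3, the zinc finger factor of early and CD4 T cells, Ets1, and Ikzf1, which encodes Ikaros. Their windows were set from mm9 positions of the genes recalled from memory, with intended margins of about 20 to 60 kb. No source used here gives those positions, so the placement of the windows was not checked. They were 109100001 to 109300000 of chromosome 12 for Bcl11b, 9750001 to 9850000 of chromosome 2 for Gata3, 32400001 to 32600000 of chromosome 9 for Ets1 and 11550001 to 11700000 of chromosome 11 for Ikzf1. Ikaros is also made in B and myeloid cells, and Ets1 in B cells, so these genes are not particular to T cells.

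Open regions were far denser at the T lineage loci. Bcl11b held 66 DNaseI regions, Ets1 58, Ikzf1 33 and Gata3 10, in all 167 in 650 kb or 257 per Mb (219 to 299). This was 12.3 times the density of the B and myeloid loci (exact interval 7.64 to 21.0). That interval covers counting error alone and not the spread between loci, and it is too narrow because open regions cluster. The comparison genes were also chosen with earlier results of these data known. The share of the window covered by open regions was 0.0804% at Pax5, 0.540% at Ebf1, 0.795% at Cebpa and 3.14% at Spi1, and ran from 5.63% at Gata3 to 17.3% at Bcl11b. Each T lineage locus was thus denser and more fully covered than each of the others, but the step from Spi1 to Gata3 was small, with 90.0 and 100 regions per Mb and a ratio of 1.11 (0.406 to 3.09). The ratio of 12.3 fell to 5.92 with windows widened by 50 kb on both sides, and it was 19.6 with windows narrowed by 20 kb and 20.8 without Spi1.

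Factor regions were also denser at the T lineage loci, from small numbers. HEB had 6 regions there and 1 at the B and myeloid loci, a density ratio of 8.40 (1.02 to 386). TCF1 had 9 and 2, a ratio of 6.30 (1.30 to 59.9). These intervals too cover counting error alone and not the spread between loci. Ets1 by itself held 3 of the 6 HEB and 4 of the 9 TCF1 regions. Leaving out single loci, chosen after seeing the data, gave HEB ratios from 6.07 without Ets1 to 10.1 without Bcl11b. For TCF1 the ratios then ran from 4.57 without Pax5 to 11.2 without Spi1. With windows widened by 50 kb the main ratios fell to 2.91 for HEB and 2.50 for TCF1, and the TCF1 ratio was 10.7 with windows narrowed by 20 kb. Per open region, TCF1 was carried by 9 of 167 DNaseI regions at the T lineage loci, or 5.39% (2.86 to 9.92%), beside 2 of 19. HEB was carried by 5 of 167, or 2.99% (1.29 to 6.82%), beside 0 of 19. The intervals of the shares overlapped, and none was computed for their difference. With 19 open regions a lower share of either factor at the B and myeloid loci could not have been shown. Gata3, like Pax5 and Cebpa, had neither factor in its window.

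**Figure D4:**
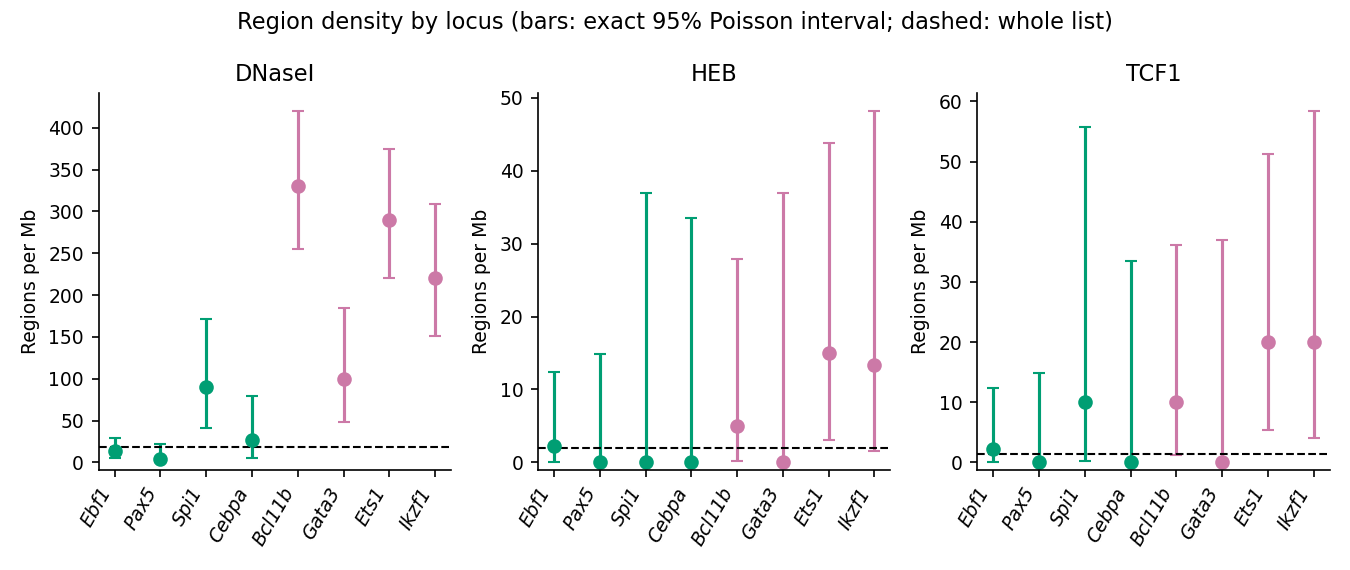
Regions per Mb in each window for DNaseI, HEB and TCF1, with exact 95% Poisson intervals as bars, the density of the whole list as a dashed line, B and myeloid loci in green and T lineage loci in pink. DNaseI density runs from 4.00 per Mb at Pax5 to 90.0 at Spi1 and from 100 at Gata3 to 330 at Bcl11b, while the HEB and TCF1 intervals are wide and mostly overlap.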

How the data were processed

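Per the labels' protocols, DNase I fragments of nuclei and chromatin precipitated with antibodies to HEB or TCF1 were sequenced on the SOLiD system. The 3 samples analysed, of 5 described, each gave 1 list with a position and a whole-number score deposited by the authors, whose unit is not stated. The submitters' processing notes name HOMER 6.1, for no given step, and build mm9. Aligner, thresholds, controls and depth are not given in these sources, so regions missing from a list got no detection limit. Positions are counted from 1.

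Regions that overlapped a window by 1 bp or more were its members, and overlap between lists was at least 1 bp. Densities used the length between the outermost regions of each chromosome, 2.57 Gb in all, with gaps and unmappable sequence unmasked. Densities carry exact Poisson intervals, ratios exact conditional binomial intervals and shares Wilson intervals, each at 95%. With 1 sample per assay no test between groups was possible, and regions are not replicates. Every factor region, every DNaseI region that carried a factor and the 5 highest-scoring DNaseI regions of each window were named, with ties by width and then position. The members, the comparison genes and these rules were chosen with earlier results of these data known. Other windows, overlap rules and scores were tried as alternatives. The overlap and interval code was checked on simulated data. Computation used Python 3.11.15 with scipy 1.17.1, numpy 2.4.6, matplotlib 3.10.9 and pandas 2.3.3.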

Additional observations from a re-analysis of the deposited data

How the results depend on the processing

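No paired analysis was possible because each assay had 1 sample and no result came from a test. The counts depended on the windows and on the score. With windows widened by 50 kb on both sides, DNaseI regions numbered 39 in all (main value 19), with 14 at Ebf1, 3 at Pax5, 16 at Spi1 and 6 at Cebpa, and there were 3 HEB and 5 TCF1 regions. With windows narrowed by 20 kb they numbered 12, with 4 at Spi1 and 1 at Cebpa, and 1 TCF1 region was left. With scores above each list's median, 7 DNaseI regions were left (3 at Ebf1, 0 at Pax5, 3 at Spi1 and 1 at Cebpa), and 0 HEB and 0 TCF1 regions. The densities of both factors relative to their lists were then 0 and 0, and 0 open regions carried TCF1. Factor ratios between the loci and shares of factor regions in open chromatin had no value under that setting, nor had the HEB ratio without Ebf1. Without Spi1, chosen after seeing the data, 10 DNaseI regions and 1 TCF1 region were left, and the DNaseI density was 0.657 times that of the list. The DNaseI density ratio of T lineage to B and myeloid loci was 5.92 with widened windows, outside its main interval, and ran up to 20.8 over 12 alternatives, above 1 in each. Leaving out any of the 8 loci in turn, chosen after seeing the data, kept it between 9.09 and 20.8. Assignment by midpoint moved no count, and with a gap of up to 500 bp 3 open regions carried TCF1. Depth is unknown, so a region missing from a list may have been too weak to be called.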
